A study of Mus musculus with 14 samples.

Results

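The 4 mouse metallothionein genes Mt1, Mt2, Mt3 and Mt4, the zinc sensor gene Mtf1 and the zinc exporter gene Slc30a1 were followed in mouse embryonic stem cells (ESCs). These 6 genes were picked by symbol from a table of 41204 genes, and the choice was made with their levels in the groups already known. Their levels are therefore given as a description, with no test. All 6 had a mean above 0.2 FPKM (fragments per kilobase of transcript, scaled to library size), the minimum that 15430 genes passed. Poly(A) RNA was sequenced from wild-type and Trincr1-/- ESCs, a knockout of the long noncoding RNA Trincr1, listed as Gm2694. The knockout was made with a pair of guide RNAs, and the sources used here do not state whether the sequenced cells came from 1 clone. The labels give the strain as C57BL/6(F) x 129/sv(M) and the developmental stage as 3.5 days for every group. All groups received the MEK inhibitor PD0325901 at 1.0 μM and leukemia inhibitory factor (LIF) at 1000 units per ml, in N2B27 medium. In 2i+LIF the GSK3 inhibitor CHIR99021 was also present at 3.0 μM. In PD+LIF the cells spent 24 h in 2i+LIF and then 4 days without CHIR99021. How long the 2i+LIF groups were cultured before harvest is not given in the sources used here. Culture time and medium therefore cannot be told apart. Each of the 4 groups had 2 samples, described by the submitters as biological replicates. RNA bound by FLAG-tagged TRIM71 in ESCs overexpressing it in 2i+LIF, and its input, were sequenced in a second experiment.

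Metallothioneins are small cysteine-rich proteins that bind zinc and copper. Mt1 and Mt2 are expressed in most tissues, and their transcription is known to rise with metals, oxidative stress and glucocorticoids. The zinc finger protein MTF1 senses free zinc and binds metal response elements in the promoters of Mt1, Mt2 and Slc30a1, whose product ZnT1 carries zinc out of the cell. Mt3 is known mainly from brain, and Mt4 from stratified squamous epithelium.

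The metallothionein genes lie side by side on chromosome 8 of GRCm38, all on the plus strand. Mt4 was listed at chr8:94137204-94139031, Mt3 at chr8:94152607-94154148, Mt2 at chr8:94172618-94173567 and Mt1 at chr8:94179089-94180325. The span from Mt4 to Mt1 is 43122 bases, and 5521 bases separate Mt2 from Mt1. Trincr1 is on the same chromosome, with 6611649 bases between it and Mt4. Mtf1 was listed at chr4:124802104-124849800 and Slc30a1 at chr1:191906767-191913247. In the GENCODE annotation of NCBIM37 the full transcript of each metallothionein gene has 3 exons, with coding sequences of 186 bases in Mt1 and Mt2, 207 in Mt3 and 189 in Mt4. The transcript of Mtf1 has 12 exons and that of Slc30a1 has 2.

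The promoters are printed because the family is known for its metal response elements. They come from RefSeq with the build GRCm38.p6, where all 6 genes were matched. Each line runs 5′ to 3′ from 250 bases before the start of transcription to 30 bases after it. Capitals mark the core of the metal response element, searched as TGCACNC and TGCGCNC on both strands.
Mt1, chr8:94178839-94179118, plus strand: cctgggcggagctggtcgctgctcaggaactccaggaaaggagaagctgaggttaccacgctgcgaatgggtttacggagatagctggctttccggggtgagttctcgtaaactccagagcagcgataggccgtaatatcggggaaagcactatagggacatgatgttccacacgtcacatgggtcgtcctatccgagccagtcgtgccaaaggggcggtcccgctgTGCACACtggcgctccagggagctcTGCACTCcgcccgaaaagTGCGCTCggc
Mt2, chr8:94172368-94172647, plus strand: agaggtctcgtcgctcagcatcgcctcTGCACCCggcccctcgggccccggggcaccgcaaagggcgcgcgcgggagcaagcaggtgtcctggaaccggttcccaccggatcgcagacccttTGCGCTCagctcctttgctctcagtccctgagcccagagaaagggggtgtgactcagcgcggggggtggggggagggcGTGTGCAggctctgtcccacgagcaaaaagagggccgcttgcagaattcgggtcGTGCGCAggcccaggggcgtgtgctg
Mt4, chr8:94136954-94137233, plus strand: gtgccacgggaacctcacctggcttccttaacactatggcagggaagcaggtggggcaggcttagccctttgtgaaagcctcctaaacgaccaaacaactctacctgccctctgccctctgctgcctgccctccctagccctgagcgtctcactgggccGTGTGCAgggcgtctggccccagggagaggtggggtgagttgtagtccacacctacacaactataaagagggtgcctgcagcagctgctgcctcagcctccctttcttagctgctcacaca
Slc30a1, chr1:191906531-191906810, plus strand: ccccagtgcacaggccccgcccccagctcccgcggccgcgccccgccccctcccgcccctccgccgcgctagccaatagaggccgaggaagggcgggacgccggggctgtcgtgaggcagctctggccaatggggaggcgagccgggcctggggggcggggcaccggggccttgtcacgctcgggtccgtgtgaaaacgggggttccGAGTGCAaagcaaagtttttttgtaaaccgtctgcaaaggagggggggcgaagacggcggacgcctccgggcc

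In the full RefSeq windows, which run to 50 bases after the start, the core occurred 4 times in Mt2, 3 times in Mt1 and 2 times in Slc30a1. It occurred 1 time each in Mt3 and Mt4 and had no match in Mtf1. A second annotated Mt1 transcript starts 122 bases downstream of the first, past the end of the Mt1 window. The bases around that start were not searched, so the counts given for Mt1 hold for this window only. Among 32851 such windows of all genes, 25.7% held at least 1 match, 7.11% at least 2, 1.97% at least 3 and 0.517% at least 4. The antioxidant response element core TGACNNNGC had 1 match in Mt2 and 1 in Slc30a1, against 12.4% of all windows. The STAT element TTCNNNGAA and the TCF/LEF element CTTTGAA or CTTTGAT had no match in the 6 windows, against 8.3% and 8.65% of all windows. A match is a sequence description and was not linked to binding in these data.

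Mt1 and Mt2 encode closely related proteins, so their coding sequences in the same annotation are printed to show how far reads could tell the genes apart. Capitals mark the 38 bases of 186 that differ.
Mt1: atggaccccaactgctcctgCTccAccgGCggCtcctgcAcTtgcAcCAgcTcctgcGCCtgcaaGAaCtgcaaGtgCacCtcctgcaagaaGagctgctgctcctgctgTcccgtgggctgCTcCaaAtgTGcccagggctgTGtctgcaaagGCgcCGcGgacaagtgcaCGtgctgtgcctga
Mt2: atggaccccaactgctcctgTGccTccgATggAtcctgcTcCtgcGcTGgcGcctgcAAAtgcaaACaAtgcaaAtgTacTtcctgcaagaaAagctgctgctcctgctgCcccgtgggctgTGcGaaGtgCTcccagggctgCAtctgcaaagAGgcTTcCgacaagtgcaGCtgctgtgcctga
The coding sequences of Mt1 and Mt2 were 79.6% identical, and the longest run shared by their transcripts was 20 bases. Among the other pairs, identity over the alignment ranged from 63.3% for Mt3 with Mt4 to 72.0% for Mt2 with Mt4, and the longest shared run was 27 bases, between Mt1 and Mt3.

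FPKM sums of the 8 samples were between 497115 and 519651, and the relative depth, read from the spacing of the lowest values, was between 0.847 and 1.16, with no group apart. Gm2694 was at 5.71 and 9.45 FPKM in wild type and at 0.0754 and 0 in Trincr1-/- in 2i+LIF, and at 6.18 and 6.56 in wild type and 1.38 and 0.746 in Trincr1-/- in PD+LIF. All 7 ESC markers examined were expressed in every group. Their summed level was 1771 to 1808 FPKM in 2i+LIF, 1116 to 1150 in wild type in PD+LIF and 914 to 947 in Trincr1-/- in PD+LIF. In the same order, 6 fibroblast markers summed to 0.467 to 1.31, 4.14 to 4.59 and 5.56 to 6.40 FPKM, and 5 neural markers to 1.11 to 1.68, 16.0 to 19.0 and 23.5 to 24.1 FPKM. Not every marker followed its sum. In wild type Sox2 was at 149 and 144 FPKM in 2i+LIF and 185 and 173 in PD+LIF. In PD+LIF Klf4 was at 28.1 and 30.8 FPKM in wild type and 38.3 and 30.3 in Trincr1-/-. The neural marker Neurod1 was at 2.09 and 3.41 FPKM in wild type and 1.42 and 0.979 in Trincr1-/- in PD+LIF. Among the fibroblast markers in PD+LIF, Thy1 was at 3.00 and 3.75 FPKM in wild type and 3.69 and 2.41 in Trincr1-/-. Col1a1 was at 0.373 and 0.446 FPKM in wild type and 1.95 and 1.82 in Trincr1-/- in that medium. Col3a1 and Dcn were at most at 0.485 FPKM in any sample. Yolk sac or hepatic endoderm markers summed to at most 0.337 FPKM in a sample, with Afp and Ttr at 0, and squamous epithelium markers to at most 0.540 FPKM, with Krt4 at 0. The part of these markers in the results was not tested, and in bulk RNA fewer cells of a type and less RNA per cell cannot be told apart.

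Mt1 and Mt2 were the abundant members. In 2i+LIF both stood among the 88 genes with the highest FPKM in every sample. Both were lower in PD+LIF than in 2i+LIF in either genotype, and lower again in Trincr1-/- than in wild type within PD+LIF.

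Mt1 was at 1005 and 977 FPKM in wild type in 2i+LIF, 1036 and 1059 in Trincr1-/- in 2i+LIF, 655 and 687 in wild type in PD+LIF, and 433 and 417 in Trincr1-/- in PD+LIF. No pair of groups overlapped. The order of the means was Trincr1-/- in 2i+LIF (1047 ± 16.2 FPKM, SD, n = 2), wild type in 2i+LIF (991 ± 19.2), wild type in PD+LIF (671 ± 23.0) and Trincr1-/- in PD+LIF (425 ± 11.0). In 2i+LIF the mean of Trincr1-/- was at 106% of wild type, while Trincr1-/- in PD+LIF was at 63.3% of wild type in the same medium. On the log2(FPKM + 1) scale, the genotype difference of Mt1 was 0.08 in 2i+LIF and -0.66 in PD+LIF.

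Mt2 was at 1161 and 1335 FPKM in wild type in 2i+LIF, 1102 and 1195 in Trincr1-/- in 2i+LIF, 653 and 638 in wild type in PD+LIF, and 351 and 318 in Trincr1-/- in PD+LIF. The genotypes overlapped in 2i+LIF, at means of 1248 ± 123 FPKM in wild type and 1148 ± 66.1 in Trincr1-/- (SD, n = 2). They did not overlap in PD+LIF, at 646 ± 11.0 and 335 ± 23.3 FPKM. Trincr1-/- was thus at 51.8% of wild type in PD+LIF, a log2(FPKM + 1) difference of -0.95 against -0.12 in 2i+LIF. Wild type in PD+LIF was at 51.7% of its level in 2i+LIF for Mt2 and at 67.7% for Mt1. Trincr1-/- in PD+LIF was at 29.1% of its level in 2i+LIF for Mt2 and at 40.6% for Mt1.

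**Figure D1:**
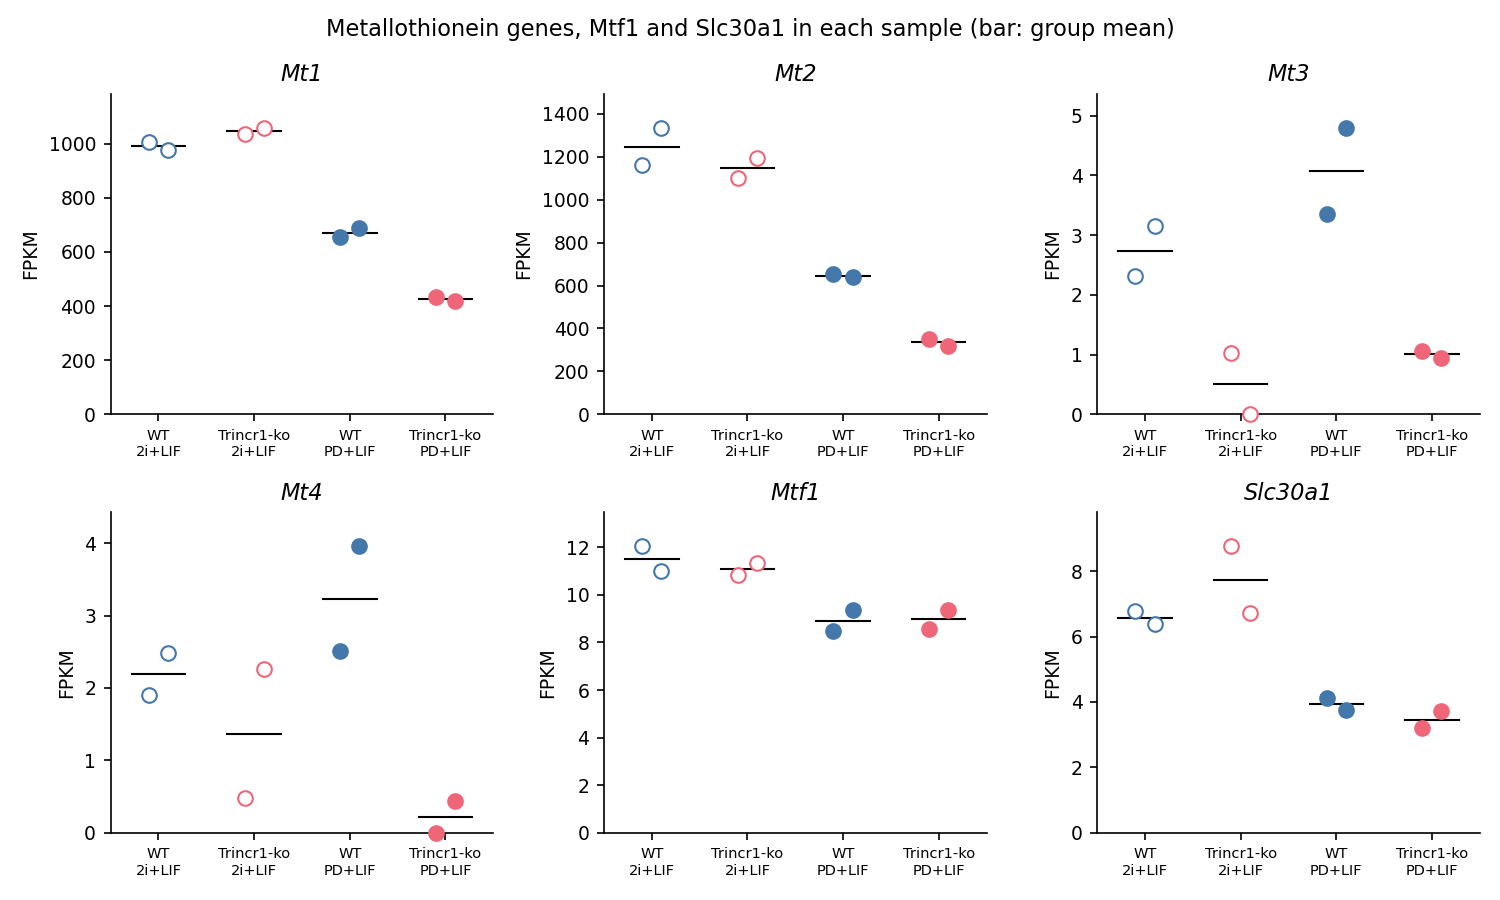
FPKM of each of the 6 genes (y axis, linear, from 0) in the 8 samples (x axis, 4 groups); each circle is 1 sample, open in 2i+LIF and filled in PD+LIF, and the bar is the group mean. Mt1 and Mt2 step down from 2i+LIF to wild type in PD+LIF and to Trincr1-/- in PD+LIF, Mt3 and Mt4 stay at or under 4.80 FPKM, and Mtf1 shows 2 levels that follow the medium.

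Mt1 and Mt2 together held 0.420% to 0.445% of the FPKM sum in the 4 samples in 2i+LIF. They held 0.261% and 0.262% in wild type and 0.155% and 0.148% in Trincr1-/- in PD+LIF. The samples of either group in PD+LIF therefore lay below every sample in 2i+LIF. The ratio of Mt1 to Mt2 FPKM was 0.865 and 0.732 in wild type and 0.940 and 0.886 in Trincr1-/- in 2i+LIF. It was 1.00 and 1.08 in wild type and 1.23 and 1.31 in Trincr1-/- in PD+LIF. The 4 groups did not overlap in this ratio. Mt2 was the higher gene in each sample in 2i+LIF and Mt1 in each sample in PD+LIF. In wild-type replicate 1 in PD+LIF the 2 genes were nearly equal, with Mt1 at 654.82 and Mt2 at 653.42 FPKM.

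**Figure D2:**
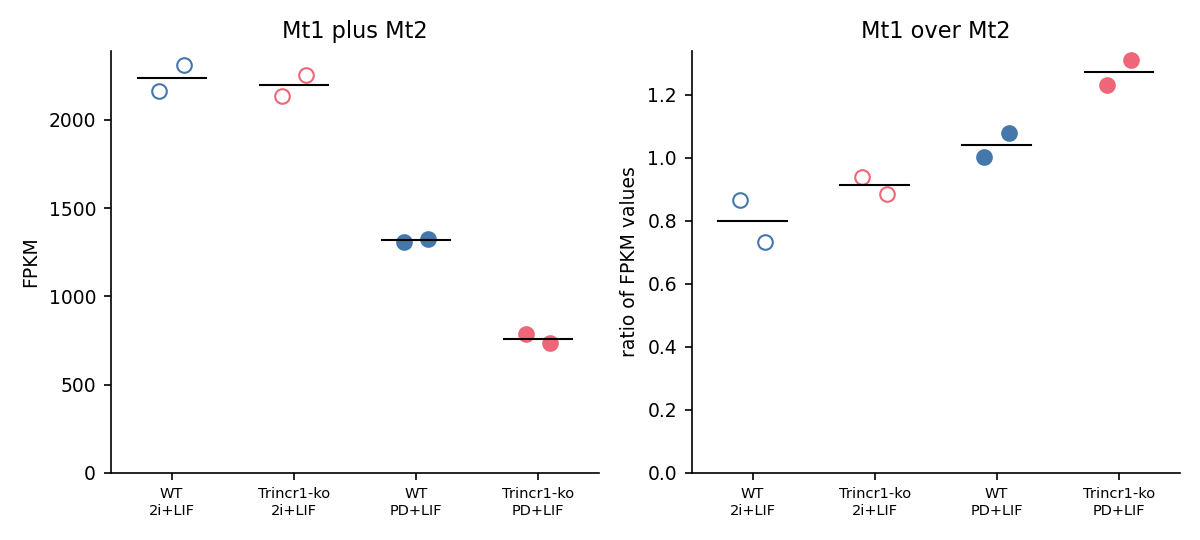
Left, sum of Mt1 and Mt2 in FPKM, and right, ratio of Mt1 to Mt2 FPKM, for the 8 samples in 4 groups (x axis); circles are samples and bars are group means. The sum is lowest and the ratio highest, at 1.23 and 1.31, in Trincr1-/- in PD+LIF.

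Mt3 and Mt4 rested on few fragments, and both were lower in Trincr1-/- than in wild type in PD+LIF. Mt3 was at 2.32 and 3.15 FPKM in wild type and 1.03 and 0 in Trincr1-/- in 2i+LIF, and at 3.36 and 4.80 in wild type and 1.07 and 0.943 in Trincr1-/- in PD+LIF. The genotypes did not overlap in either medium, and Trincr1-/- was at 18.8% of the wild-type mean in 2i+LIF and at 24.6% in PD+LIF. The media overlapped in Trincr1-/-, at means of 0.514 ± 0.727 FPKM in 2i+LIF and 1.00 ± 0.0865 in PD+LIF (SD, n = 2).

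The low values were placed on steps of whole fragments, with a step size fitted to bring them close to whole numbers. For Mt3 the estimates were 9 and 12 fragments in wild type and 4 and 0 in Trincr1-/- in 2i+LIF, and 15 and 18 against 4 and 4 in PD+LIF. Over both samples of a group, 8 fragments in Trincr1-/- stood against 33 in wild type in PD+LIF, a depth-corrected ratio of 0.249 (exact 95% interval 0.0992 to 0.549). In 2i+LIF 4 stood against 21, a ratio of 0.206 (0.0513 to 0.609). These intervals and those of Mt4 below cover counting error only and leave out the spread between samples. The genes were chosen with these values known, so the intervals are not a test of genotype or medium.

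Mt4 was at 1.91 and 2.48 FPKM in wild type and 0.477 and 2.26 in Trincr1-/- in 2i+LIF, and at 2.51 and 3.96 in wild type and 0 and 0.441 in Trincr1-/- in PD+LIF. The genotypes overlapped in 2i+LIF and not in PD+LIF, where the Trincr1-/- mean was at 6.83% of wild type. In fragments, Mt4 had 4 and 5, 1 and 4, 6 and 8, and 0 and 1 in the same 4 groups. For the genotype in PD+LIF, 1 fragment against 14 gave a ratio of 0.0732 with an exact 95% interval of 0.00173 to 0.481, and in 2i+LIF 5 against 9 gave 0.600 (0.158 to 1.99). The medium in wild type gave a ratio of 1.46 for Mt4 (0.590 to 3.83) and 1.48 for Mt3 (0.830 to 2.69). The log2(FPKM + 1) differences of Mt3 and Mt4 depend on the pseudocount. With 0.1 FPKM in place of 1 FPKM, Mt4 in PD+LIF moved from -1.80 to -3.80 and Mt3 in 2i+LIF from -1.38 to -3.06.

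Mtf1 and Slc30a1 were lower in PD+LIF than in 2i+LIF in both genotypes. Mtf1 was at 12.0 and 11.0 FPKM in wild type and 10.8 and 11.3 in Trincr1-/- in 2i+LIF, and at 8.48 and 9.36 in wild type and 8.57 and 9.38 in Trincr1-/- in PD+LIF. The genotypes overlapped in both media and the media did not overlap in either genotype. Its log2(FPKM + 1) difference was -0.34 between media in wild type and 0.01 between genotypes in PD+LIF.

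Slc30a1 was at 6.78 and 6.37 FPKM in wild type and 8.76 and 6.72 in Trincr1-/- in 2i+LIF, and at 4.12 and 3.76 in wild type and 3.20 and 3.71 in Trincr1-/- in PD+LIF. The media were apart in both genotypes, with wild type in PD+LIF at 59.9% and Trincr1-/- at 44.7% of the level in 2i+LIF. Between genotypes the samples overlapped in 2i+LIF and were separated in PD+LIF by 3.71 against 3.76 FPKM. In PD+LIF the Slc30a1 means were 3.94 ± 0.249 FPKM in wild type and 3.46 ± 0.364 in Trincr1-/- (SD, n = 2).

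Counted over the 6 genes, the samples of Trincr1-/- lay below those of wild type in PD+LIF for 5 genes and overlapped for Mtf1. Of all 15430 genes, 27.5% were lower without overlap in that comparison. In 2i+LIF Mt1 was higher and Mt3 lower without overlap, beside 22.0% and 22.4% of all genes, and the other 4 overlapped. With the medium, 4 genes were lower and 2, Mt3 and Mt4, higher in wild type (32.1% and 44.4% of all genes). In Trincr1-/- 5 were lower and Mt3 overlapped (31.2% of all genes lower). The choice of the members used these values, and the comparisons share samples. The genotype difference in PD+LIF minus that in 2i+LIF was -0.74 for Mt1, -0.83 for Mt2, 0.06 for Mt3, -1.26 for Mt4, 0.06 for Mtf1 and -0.35 for Slc30a1 on the log2(FPKM + 1) scale. The middle 90% of all genes ranged from -0.56 to 0.58 in this measure.

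**Figure D3:**
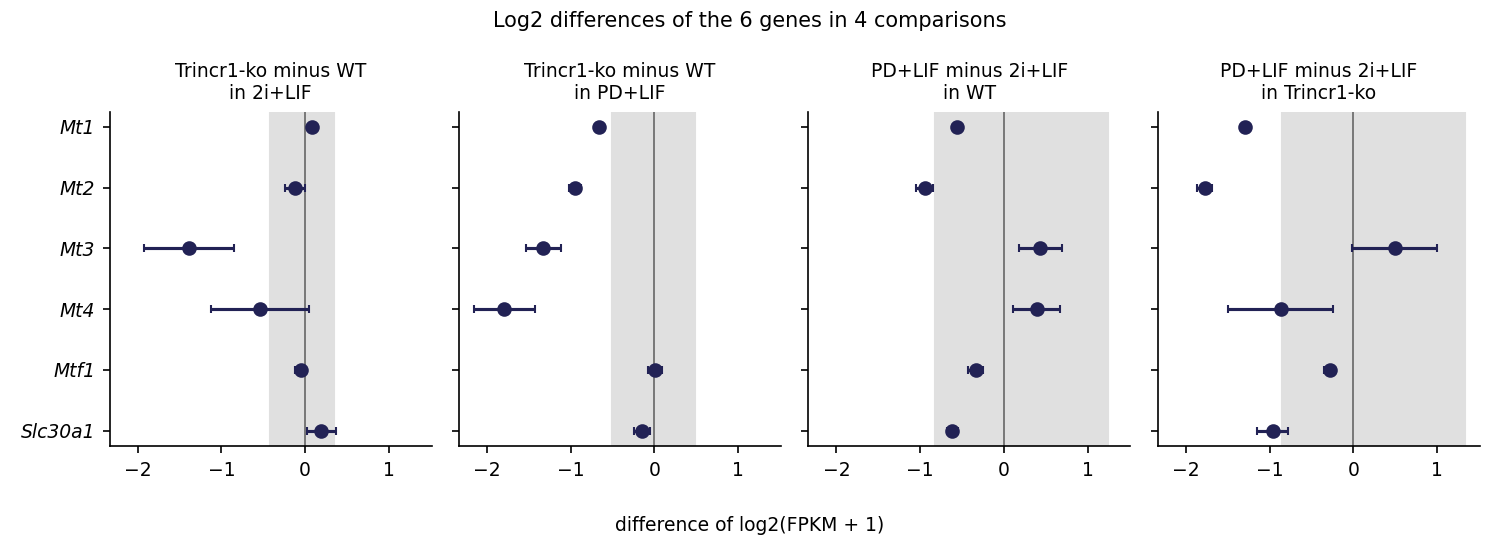
Difference of mean log2(FPKM + 1) (x axis) for the 6 genes (y axis) in 4 comparisons; points are differences, error bars the pooled SD within the groups (n = 2 each), and the grey band the 5th to 95th percentile of all 15430 genes. Mt1, Mt2, Mt3 and Mt4 lie left of the band for the genotype in PD+LIF, at -0.66, -0.95, -1.33 and -1.80.

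The genes closest to each member in their pattern over the 8 samples were found by the root mean square (RMS) difference of log2(FPKM + 1) values centred on each gene's mean, among 12063 genes with a mean of at least 1 FPKM. For Mt1 these were Esrrb (RMS 0.07), Triml1 (0.08) and Ildr1 (0.09), against a median of 0.58 over all genes. Esrrb, a transcription factor of naive pluripotency and 1 of the 7 ESC markers, was at 165 FPKM in wild type and 177 in Trincr1-/- in 2i+LIF, and at 109 and 73.2 in PD+LIF. For Mt2 the closest were Pip5k1b (0.10), Atp1b1 (0.13) and Arl14epl (0.15). Atp1b1, a subunit of the sodium pump, was at 77.3 and 70.4 FPKM in 2i+LIF and 36.6 and 17.3 in PD+LIF, in wild type and Trincr1-/-. Mt2 was at an RMS of 0.26 from Mt1 and Slc30a1 at 0.23, at ranks 318 and 185 among the genes most like Mt1.

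For Mt3 the closest genes were Xlr3c (0.25), Dtx1 (0.34) and Scrn1 (0.37), and for Mt4 Ubash3a (0.36) and H2-Bl (0.41) were among the 3 closest. For Mtf1 they were Dus1l (0.03), Shq1 (0.03) and Nle1 (0.04). For Slc30a1 they were Map10 (0.08), Uqcrb (0.09) and Zfp654 (0.09). The points share libraries, and these values are a description.

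The genes around the cluster were not part of the choice and were compared with limma, adjusted over all 15430 genes by Benjamini-Hochberg. Within 250 kb, 6 genes were tested, among them Nudt21, Ogfod1 and Bbs2 on the side of Mt4 and Nup93 and Herpud1 on the side of Mt1. In PD+LIF, where Mt1 to Mt4 were lower in Trincr1-/-, Bbs2 was higher and Nudt21 lower in Trincr1-/-, and the other 4 did not pass the test. Bbs2, a component of the ciliary BBSome, was at 6.38 ± 0.205 FPKM in wild type and 9.95 ± 1.42 in Trincr1-/- (SD, n = 2), a log2 difference of 0.56 ± 0.12 (SE) with an adjusted p of 0.0259 by limma. Nudt21, a subunit of cleavage factor Im, was at 50.6 ± 0.331 and 44.5 ± 1.11 FPKM, a log2 difference of -0.18 ± 0.04 with an adjusted p of 0.0386. Over all genes 12.1% were called in this comparison. Both calls were lost in some alternatives, with adjusted p up to 0.136 for Bbs2 and 0.135 for Nudt21. Bbs2 lost it without either wild-type sample in PD+LIF (adjusted p 0.102 and 0.111 without replicates 1 and 2) or without Trincr1-/- replicate 1 (0.136), and Nudt21 without any 1 of the 8 samples (0.0559 to 0.135).

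In 2i+LIF none of the 6 neighbours was called for the genotype by limma, beside 1.21% of all genes, and 2 had an unadjusted p under 0.05. With the medium in wild type the nucleoporin gene Nup93 fell (log2 difference -0.39, adjusted p 0.000274 by limma), beside 52.2% of all genes called. In Trincr1-/- Bbs2 rose with the medium and Nup93 fell, beside 50.0% of all genes called. The difference of the genotype effect between media was called by limma for none of the 6, with 2 at an unadjusted p under 0.05, and for 1.81% of all genes.

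**Figure D4:**
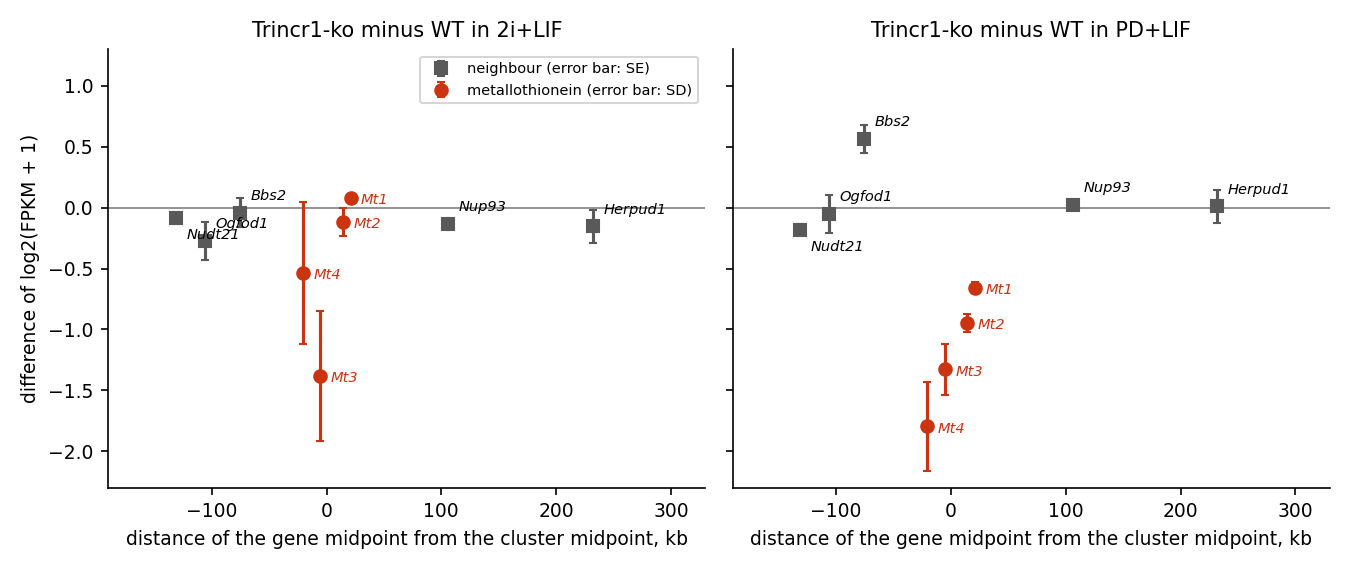
Difference of mean log2(FPKM + 1) between Trincr1-/- and wild type (y axis) against the distance of each gene's midpoint from the midpoint of the Mt4 to Mt1 span in kb (x axis), in 2i+LIF (left) and PD+LIF (right). Red circles are metallothionein genes with the pooled SD within groups, and grey squares are 5 of the 6 neighbours with the SE of the fit. In PD+LIF the 4 metallothionein genes lie between -0.66 and -1.80 and these neighbours between -0.18 and 0.56.

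Genes of zinc and copper handling and of the pathways known to act on metallothionein genes were compared in the same fit. Of 73 listed genes, 65 were tested. For the genotype in 2i+LIF limma called 0 of them, with 9 at an unadjusted p under 0.05. In PD+LIF 8 were higher and 6 lower in Trincr1-/- (21.5%, beside 12.1% of all genes), with a median log2 difference of -0.04 against 0.01 over all genes. A fit of the 4 PD+LIF samples alone called 2 of the 65 instead of 14. Without wild-type replicate 1 or Trincr1-/- replicate 2 in PD+LIF 7 were called, without wild-type replicate 2 there were 8, and without Trincr1-/- replicate 1 there were 4. With the medium in wild type 11 rose and 31 fell (64.6%, beside 52.2% of all genes), with a median of -0.18 against 0.08 over all genes. In Trincr1-/- 10 rose and 26 fell with the medium (55.4%, near the 50.0% of all genes), with a median of -0.14 against 0.07. The shares over all genes, here and for each list below, include genes of low level and are not matched to the listed genes. Among 12063 genes with a mean above 1 FPKM, 1909 were called for the genotype in PD+LIF. The medium gave 7181 calls among them in wild type and 6752 in Trincr1-/-.

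Among the zinc exporters other than Slc30a1, 0 of 7 tested were called for the genotype in PD+LIF (beside 12.1% of all genes, median 0.02), with 1 at an unadjusted p under 0.05. In wild type 1 rose and 3 fell with the medium (57.1%, near the 52.2% of all genes). Slc30a2, which loads zinc into vesicles, fell by 2.34 on the log2 scale, from 21.8 to 3.50 FPKM (adjusted p 8.7e-06 by limma). The Golgi transporter gene Slc30a6 fell by 0.40, the synaptic vesicle transporter gene Slc30a3 fell by 0.53, and Slc30a9 rose by 0.81. The call of Slc30a3 was lost without any 1 of the 4 wild-type samples (adjusted p 0.0595 to 0.0831).

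Among the zinc importers, 2 of 10 tested rose and 0 fell in Trincr1-/- in PD+LIF (20.0%, beside 12.1% of all genes, median 0.12). Slc39a14, which imports zinc and iron, was at 3.17 and 3.19 FPKM in wild type and 7.28 and 7.69 in Trincr1-/- (log2 difference 1.02 ± 0.11 SE, adjusted p 0.0037 by limma). In 2i+LIF it was at 7.99 and 7.97 in wild type and 9.03 and 7.22 in Trincr1-/-, so it fell with the medium in wild type (-1.10, adjusted p 0.000202) and not detectably in Trincr1-/- (-0.10, adjusted p 0.497). Slc39a7, which releases zinc from the endoplasmic reticulum, rose by 0.30 (adjusted p 0.0429), a call lost without 7 of the 8 samples in turn (0.0621 to 0.175), all but Trincr1-/- replicate 2 in PD+LIF. In wild type 1 importer rose and 5 fell with the medium (60.0%, beside 52.2% of all genes), among them Slc39a11 (-1.50) and Slc39a3 (-0.53), while Slc39a13 rose (0.46). The call of Slc39a3 was lost without replicate 1 of wild type in 2i+LIF or in PD+LIF (0.156 and 0.153), and that of Slc39a13 without any 1 of the 4 wild-type samples (0.101 to 0.146).

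All 6 genes listed as other reported MTF1 targets were tested, and 3 rose and 0 fell in Trincr1-/- in PD+LIF (50.0%, beside 12.1% of all genes, median 0.24). These were Pgf, placental growth factor (0.72, adjusted p 0.0283 by limma), the stress-responsive gene Ndrg1 (0.52, adjusted p 0.0159) and Sepw1, selenoprotein W (0.36, adjusted p 0.00746). In the same comparison Mt1 and Mt2 were lower. The list was not split by whether MTF1 raises or lowers a gene, and MTF1 activity was not tested. With a pseudocount of 0.1 FPKM the difference of Pgf was 1.26 and its call was lost (adjusted p 0.187). The calls of Pgf were also lost without any 1 of the 4 samples in PD+LIF (0.0501 to 0.136), those of Ndrg1 without wild-type replicate 1 (0.0812) or Trincr1-/- replicate 1 or 2 (0.0982 and 0.0739), and that of Sepw1 without Trincr1-/- replicate 1 (0.0617). Between media in wild type, Ndrg1 rose by 1.45 and Pgf by 0.63, and the selenoprotein genes 2700094K13Rik and Sepw1 fell by 0.48 and 0.23. The call of Pgf with the medium was lost without replicate 2 of wild type in 2i+LIF or PD+LIF (0.0641 and 0.0573).

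Of 15 copper handling genes tested, 2 fell and 0 rose in Trincr1-/- in PD+LIF (13.3%, near the 12.1% of all genes, median -0.04). They were the copper importer gene Slc31a1 (-0.41, adjusted p 0.0128 by limma) and Ccs, the copper chaperone of superoxide dismutase (-0.38, adjusted p 0.0294). Slc31a1 lost the call without wild-type replicate 1 (0.0753) or Trincr1-/- replicate 1 or 2 in PD+LIF (0.0547 and 0.0632), and Ccs without 7 of the 8 samples in turn (0.0516 to 0.127), all but wild-type replicate 1 in PD+LIF. In wild type 3 rose and 8 fell with the medium (73.3%, beside 52.2% of all genes). Slc31a1 rose (0.53), as did the copper pump gene Atp7b (0.64), while Sod1 (-0.50) and the metalloreductase gene Steap2 (-0.59) fell. Steap2 lost the call without either wild-type sample in 2i+LIF (0.0687 and 0.0741) or wild-type replicate 1 in PD+LIF (0.0943).

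Of 21 genes of NRF2 and oxidative stress, 2 rose and 4 fell in Trincr1-/- in PD+LIF (28.6%, beside 12.1% of all genes, median -0.12). Gsr, glutathione reductase, was at 94.3 and 86.4 FPKM in wild type and 63.6 and 63.3 in Trincr1-/- (-0.50, adjusted p 0.00496 by limma). Gstm1, a glutathione transferase gene, fell by 0.47 and Nfe2l2, which encodes NRF2, fell by 0.41, while Hmox1, heme oxygenase, rose by 0.33. The calls of these 3 were lost without some single samples in PD+LIF. Gstm1 lost it without wild-type or Trincr1-/- replicate 1 (0.124 and 0.118), Nfe2l2 without any 1 of the 4 (0.0575 to 0.125), and Hmox1 without wild-type replicate 2 (0.0972) or Trincr1-/- replicate 1 or 2 (0.104 and 0.103). In wild type 2 rose and 11 fell with the medium (61.9%, beside 52.2% of all genes), the falls led by Nqo1 (-1.50), Gstp1 (-0.92), Me1 (-0.87) and Pgd (-0.81). The genes that rose, named after their values were seen, were Gstm1 (0.80, adjusted p 0.000402 by limma) and the microsomal glutathione transferase gene Mgst1 (0.78, adjusted p 0.0162). Mgst1 was at a mean of 0.340 FPKM in 2i+LIF and 1.27 in PD+LIF, and its call was lost without wild-type replicate 2 in 2i+LIF (0.0921) or replicate 1 in PD+LIF (0.0854).

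Of 8 genes of the glucocorticoid receptor and its targets, 1 rose and 0 fell in Trincr1-/- in PD+LIF (12.5%, near the 12.1% of all genes, median 0.00). It was the kinase gene Sgk1 (0.49, adjusted p 0.0047 by limma). In wild type 2 rose and 2 fell with the medium (50.0%, near the 52.2% of all genes). With the medium in wild type Sgk1 fell by 1.59, from 184 to 60.8 FPKM, and Fkbp5 fell by 0.33, while Tsc22d3 rose by 1.02 and Klf9 by 0.33.

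In the TRIM71 pulldown, Slc30a1 was above its input level and Mt2 far below it, and the side on which Mt1 lay depended on the scaling. TRIM71 is an RNA-binding protein, and Trincr1 was studied as its partner. The deposited table holds 1 value for the pulldown and 1 for the input, so these ratios have no error and no test. The pulldown RNA was made into cDNA without the poly(A) selection of the input, and the pulldown from cells without the tagged protein was not analysed here. Slc30a1 was at 2.8 FPKM in the input and 11.5 in the pulldown. With the deposited scaling its ratio was 9.25, with bounds of 9.07 and 9.44 from rounding to 1 decimal. It stood at position 106 among 9651 transcripts with an input above 2 FPKM, of which 5.10% had a ratio above 3, and above 98.0% of the 2622 transcripts with an input within 2-fold of its own. At this input level most transcripts were not detected in the pulldown, with 70.7% of those 2622 listed at 0.

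Mt1 was at 479.5 FPKM in the input and 193.3 in the pulldown, a scaled ratio of 0.905, above 90.0% of the 219 transcripts of similar input. Its ratio was 0.403 from the unscaled columns and 1.83 with libraries scaled without their 100 highest transcripts. Mt2 was at 664.9 and 28.6 FPKM, a scaled ratio of 0.0967, above 10.8% of 148 such transcripts. The ratio of Mt1 to Mt2 was thus 0.721 in the input and 6.76 in the pulldown, a 9.37-fold difference that does not depend on the scaling between libraries. Mtf1 was at 9.0 FPKM in the input and listed at 0 in the pulldown, as were 53.4% of 3898 transcripts of similar input. Mt3 was at 1.1 FPKM in the input and listed at 0 in the pulldown, and no value for Mt4 was used here. Among the pathway genes, Slc39a6 (11.8), Slc30a3 (10.3) and Cox19 (3.52) also had a ratio above 3, of 55 with an input above 2 FPKM (5.45%, near the 5.10% of all transcripts). Cox19 was above 3 only with the scaling, at 1.57 from the unscaled columns.

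**Figure D5:**
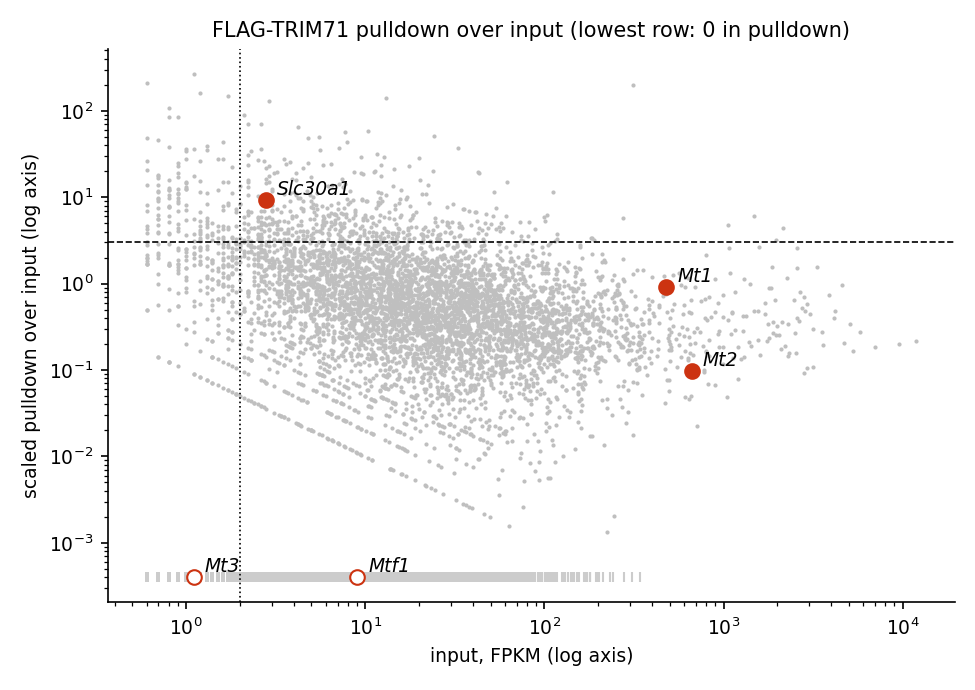
Scaled pulldown over input (y axis, log) against input in FPKM (x axis, log) for transcripts with an input above 0.5 FPKM; grey points are transcripts, ticks in the lowest row those listed at 0 in the pulldown, and red circles the members, open where listed at 0. The dashed line marks a ratio of 3 and the dotted line an input of 2 FPKM, and Slc30a1 lies above the dashed line at 9.25, Mt1 at 0.905 and Mt2 at 0.0967.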

How the data were processed

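RNA-seq of 8 ESC samples in 4 groups and a FLAG-TRIM71 pulldown with its input were used. The authors aligned reads with STAR 2.5.0 and deposited FPKM values from Cufflinks 2.2.1, 1 per gene and sample. The methods name the build mm9, while the gene positions in the table are those of GRCm38. For the pulldown the authors deposited FPKM and scaled FPKM, 1 column per kind of library, rounded to 1 decimal, and a fold of enrichment that was not used. Whether these columns pool replicates is not given in the sources used here.

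One entry per gene identifier was kept. Values were compared as log2(FPKM + 1), with a pseudocount of 1 FPKM, by limma 3.58.1 in R 4.3.3 over all 8 samples with a variance trend, for 15430 genes with a mean above 0.2 FPKM, two-sided, with Benjamini-Hochberg adjustment at 0.05. With 2 samples per group, p-values rest on the variance between samples within groups. That variance is pooled over the 4 groups and drawn toward that of other genes of similar level. The SE is that of limma. On simulated data for the genotype in PD+LIF with 15430 genes, 194 of 200 genes changed by 2 on the log2 scale were called, with 10 false calls. The simulated noise was independent between genes and samples. All genotype differences named with this fit were smaller than 2, and smaller changes were not simulated, so this share called does not apply to them. Fragments of Mt3 and Mt4 were estimated from steps between low FPKM values, an alternative chosen after seeing the data, with exact intervals for counting error. The step size was chosen to keep the largest distance of an estimate from a whole fragment small, and that distance was 0.128. It is therefore not a separate check of the estimates. The depth of the pulldown libraries is unknown.

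The members and gene lists (zinc exporters, zinc importers, other reported MTF1 targets, copper handling, NRF2 and oxidative stress, glucocorticoid receptor and targets, and the cell type markers) were chosen with earlier results of these data known. Named genes are the members, tested genes within 250 kb of the cluster, up to 4 called genes per list and comparison with the largest change, the 3 genes most like each member, and Gm2694. Some genes that this rule names are not reported here. The 3 pathway genes with a pulldown ratio above 3 were named after their values were seen. Python 3.11.15, pandas 2.3.3, numpy 2.4.6, scipy 1.17.1 and matplotlib 3.10.9 were used. Alternatives covered the pseudocount, the filter, the scaling, the variance model, the samples fitted and the window around the cluster.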

Additional observations from a re-analysis of the deposited data

Results flagged for a closer look

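The genotype effect differed between media, by the interaction term of limma, for 5 of the 65 pathway genes (7.69%, beside 1.81% of all genes). Of these, Gsta4 (-0.42, adjusted p 0.0310) was not among the named genes. The other 4 were, and named genes had been picked by their calls in these same data. What follows is for those 4. The difference of the log2 genotype effects, PD+LIF minus 2i+LIF, was 1.01 for Slc39a14 (adjusted p 0.0346), 0.62 for Sgk1 (0.0272), -0.52 for Gsr (0.0383) and -0.82 for Gstm1 (0.0368). Each direction was the same in all 14 alternatives run. The calls passed in 3 of 14 for Slc39a14, Gsr and Gstm1 and in 4 of 14 for Sgk1, and leaving out any single sample ended those of Slc39a14, Gsr and Gstm1, with adjusted p up to 0.123, 0.137 and 0.134. For Sgk1 every sample but wild-type replicate 1 in PD+LIF ended the call when left out, with adjusted p up to 0.110.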

How the results depend on the processing

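Of 144 alternatives for the 24 differences of the members, 139 kept the sign. The 5 others were Mt3 with the medium in Trincr1-/- without replicate 2 of Trincr1-/- in 2i+LIF (-0.02), Mt4 with the genotype in 2i+LIF without replicate 1 of Trincr1-/- (0.03), and 3 of Mtf1 (0.01, -0.05 and -0.06). A pseudocount of 0.1 FPKM moved Mt3 to -3.06 and -1.90 for the genotype in 2i+LIF and PD+LIF and to 1.72 for the medium in Trincr1-/-, Mt4 to -3.80 for the genotype in PD+LIF and -2.33 for the medium in Trincr1-/-, and Slc30a1 to -0.73 for the medium in wild type. Median ratio scaling moved Mt1 to -0.63 and -1.36 for the medium in wild type and Trincr1-/-. The pulldown ratios of Mt1, Mt2 and Slc30a1 were 0.403, 0.0430 and 4.11 from unscaled columns and 1.83, 0.195 and 18.6 with libraries scaled without their 100 highest transcripts. Called genes for the genotype in 2i+LIF were 186, and 122 with no filter, 0 with only the 4 samples compared (2106 at an unadjusted p under 0.05) and 40 to 113 without 1 sample. For the genotype in PD+LIF they were 1861, 316 with only the 4 samples compared and 335 to 1519 without 1 sample, the lowest without Trincr1-/- replicate 1. For the difference between media they were 279, 138 with no filter, 88 with no variance trend and 3 to 34 without 1 sample, the lowest without replicate 2 of Trincr1-/- in 2i+LIF. Over all alternatives, 2 to 14 of the 65 pathway genes were called for the genotype in PD+LIF and 29 to 43 for the medium in wild type. Of the named pathway calls, a pseudocount of 0.1 FPKM moved those with the medium in wild type to -0.86 for Slc30a3, 2.22 for Pgf, 1.20 for Atp7b and 1.84 for Mgst1. For the genotype in PD+LIF, no filter and no variance trend ended the calls of Slc39a7 (adjusted p 0.0801 and 0.0942 by limma), Ccs (0.0546 and 0.0579) and Gstm1 (0.0532 and 0.0515). No variance trend also ended those of Hmox1 (0.0612) and Nudt21 (0.116), and no filter ended Slc39a3 (0.0646) and Slc39a13 (0.0747) for the medium in wild type. The cause of these moves was not tested. Of the 6 neighbours, 2 were called for the genotype in PD+LIF, against 1 with no variance trend, 0 with only the 4 samples compared and 0 to 1 without 1 sample. A window of 500 kb held 11 genes, of which 4 were called for that comparison, 5 and 6 for the medium in wild type and Trincr1-/-, and 1 for the difference between media.

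Same-numbered samples did not deviate together from their group means (correlations over genes of -0.0539 to 0.00634). This shows no broad shared shift, but it cannot tell whether same-numbered samples were handled together. The sources used here do not state that. With a replicate block, 111 genes were called for the genotype in 2i+LIF, 1302 in PD+LIF and 39 for the difference between media, and 1 neighbour for the genotype in PD+LIF. The block ended the calls of Ccs (adjusted p 0.0529 by limma), Nudt21 (0.0704) and Slc39a7 (0.0704) for the genotype in PD+LIF, of Slc39a13 (0.0581) for the medium in wild type, and of the 4 named differences between media (0.0546 to 0.0813).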
